A study of Mus musculus with 8 samples.

Results

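The squamous and basal keratins Krt5, Krt14, Krt15, Krt4, Krt13, Krt6a, Krt16, Krt17, Krt1 and Krt10 were examined in RNA from gastric squamous-columnar junction (SCJ) cancers and from the SCJ of control stomachs. They were chosen by gene symbol, and all 10 were found among the 23361 genes of the deposited expression table. The 5 cancers carried Trp53-/-Rb1-/- cells. They arose in Lgr5eGFP-Ires-CreERT2 Trp53loxP/loxP Rb1loxP/loxP Ai9 mice, in which tamoxifen, injected 3 times from 6 to 10 weeks of age, activates Cre in cells that express Lgr5 and switches on the tdTomato reporter. Tumors were dissected along their tdTomato border at least 250 days after induction. The 3 control tissues were SCJ regions of age-paired wild type stomachs. The methods of the study have control mice injected with tamoxifen alongside those for tumor induction, without saying whether the wild type stomachs used for RNA came from them. A tumor sample also holds cells of the host that were never recombined, and a control SCJ sample holds squamous and glandular epithelium and the layers beneath them.

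Keratins are the intermediate filament proteins of epithelia, and each filament pairs a type II with a type I chain. In stratified squamous epithelium, such as that of the mouse forestomach, the dividing basal layer makes Krt5 and Krt14. Cells that leave this layer switch to other pairs, Krt4 with Krt13 in moist mucosa and Krt1 with Krt10 in cornifying epithelium. Krt6a, Krt16 and Krt17 are known as keratins of activated, wounded or hyperproliferative epithelium, and Krt15 marks basal cells. The columnar epithelium of the glandular stomach uses the simple keratins Krt8, Krt18 and Krt19 in their place.

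The members lie in the keratin clusters of mouse chromosomes 15 (type II) and 11 (type I), and the deposited table gives their loci in mm10. The type II genes are Krt6a (chromosome 15, 101689928 to 101694305), Krt5 (101707070 to 101712891), Krt1 (101845426 to 101850786) and Krt4 (101918535 to 101924735). The type I genes are Krt10 (chromosome 11, 99385256 to 99389364), Krt13 (100117596 to 100121495), Krt15 (100131759 to 100135949), Krt14 (100203162 to 100207510), Krt16 (100246091 to 100248902) and Krt17 (100256217 to 100260989). The RefSeq promoter table (GRCm38.p6) has entries for 4 members, and for 3 of them (Krt5, Krt10 and Krt13) the start site lay within 100 bases of the end of the deposited locus. Krt1, Krt4, Krt6a, Krt15, Krt16 and Krt17 have no entry. The 150 bases before the start site of these 3 genes, a basal type II and both cornifying and mucosal suprabasal type I keratins, are shown 5′ to 3′ on the gene's strand. Capitals mark a TATA-like run, ATAAA with any base and then a G, where it lies within 40 bases of the start.
Krt5 (chr15:101712906-101713055, minus strand): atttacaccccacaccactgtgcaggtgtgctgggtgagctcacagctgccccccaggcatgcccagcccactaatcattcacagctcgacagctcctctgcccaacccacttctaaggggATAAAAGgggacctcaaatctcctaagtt
Krt13 (chr11:100121567-100121716, minus strand): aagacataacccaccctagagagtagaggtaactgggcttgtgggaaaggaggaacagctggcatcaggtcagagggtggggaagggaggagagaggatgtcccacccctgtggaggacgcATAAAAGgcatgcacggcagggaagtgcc
Krt10 (chr11:99389365-99389514, minus strand): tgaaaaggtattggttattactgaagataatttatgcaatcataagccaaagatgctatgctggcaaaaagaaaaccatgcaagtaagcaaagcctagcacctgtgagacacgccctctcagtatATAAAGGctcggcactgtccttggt

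All 3 windows held this run in these 40 bases on either strand, and 2.49% of 32851 RefSeq promoters did. The motif was chosen after these windows were read. The letters of an AP-1 element, TGA with any base and then TCA, were searched on both strands of the 250 bases before the start, where 6.75% of promoters hold them, and were found for Krt13 but not for Krt5 or Krt10. The motifs do not overlap. A match is a description of these letters and no sign of a bound factor.

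Deposited values were FPKM (fragments per kilobase of transcript, scaled between libraries by cuffnorm) that the authors had rounded to whole numbers. How cuffnorm scaled the libraries is not stated in the sources used here. Summed FPKM ran from 403569 to 573858 in the cancers and from 887141 to 992550 in the controls. The depth of each library is unknown, so no limit of detection can be stated. Genes at 0 are called listed at 0, since such a value can also be a failed estimate. Of the targeted genes, Trp53 had 12, 22, 12, 30 and 12 FPKM in cancers 1 to 5 and 16, 17 and 19 in controls 1 to 3. Rb1 had 4, 4, 5, 6 and 4 FPKM in cancers against 9, 9 and 10 in controls. Values per gene do not separate deleted exons from intact ones. Genes were compared on log2(FPKM + 1) with limma, which understates changes of low genes. The log2 fold change was -0.90 for Rb1 (limma adjusted p = 0.0059) and -0.08 for Trp53 (limma adjusted p = 0.87). With every library rescaled to the same sum (TPM) it was -0.05 for Rb1 (limma adjusted p = 0.84) and 0.86 for Trp53 (limma adjusted p = 0.020). The Rb1 difference thus depends on the scaling of the libraries. By the methods of the study the controls were 3 stomachs, while neither the methods nor the labels say that each tumor came from a separate mouse. The p-values measure the spread between these samples.

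Of the 10 keratins, Krt4 and Krt10 fell in the cancers at an adjusted p under 0.05 and none rose. At an unadjusted p under 0.05, 4 were lower and 0 higher in limma, where 25.3% of all genes were lower and 22.6% higher. Over all 14357 genes tested, 34.5% were called in limma, with 18.3% called lower. The share of called keratins, 20%, all of them lower, was near the 18.3% called lower and under the 34.5% called in either direction. The calls were borderline: leaving out cancer 1, 2 or 3 or any of the controls left no member called, while 2 were called without cancer 5 and 3 without cancer 4. After rescaling every library to the same sum (TPM), 1 member was called, and 7176 of all genes were called higher and 528 lower, against 2326 and 2622 with FPKM. With TPM the median over all genes moved from -0.04 to 0.81 on the log2 scale. The median log2 fold change of the 10 keratins was -2.55. Every cancer lay below every control for 4 of the 10 (Krt4, Krt13, Krt1 and Krt10), where 34.1% of all tested genes did not overlap between groups and 19.8% had every cancer lower. In bulk tissue, fewer squamous cells and less keratin RNA per cell cannot be told apart.

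**Figure D1:**
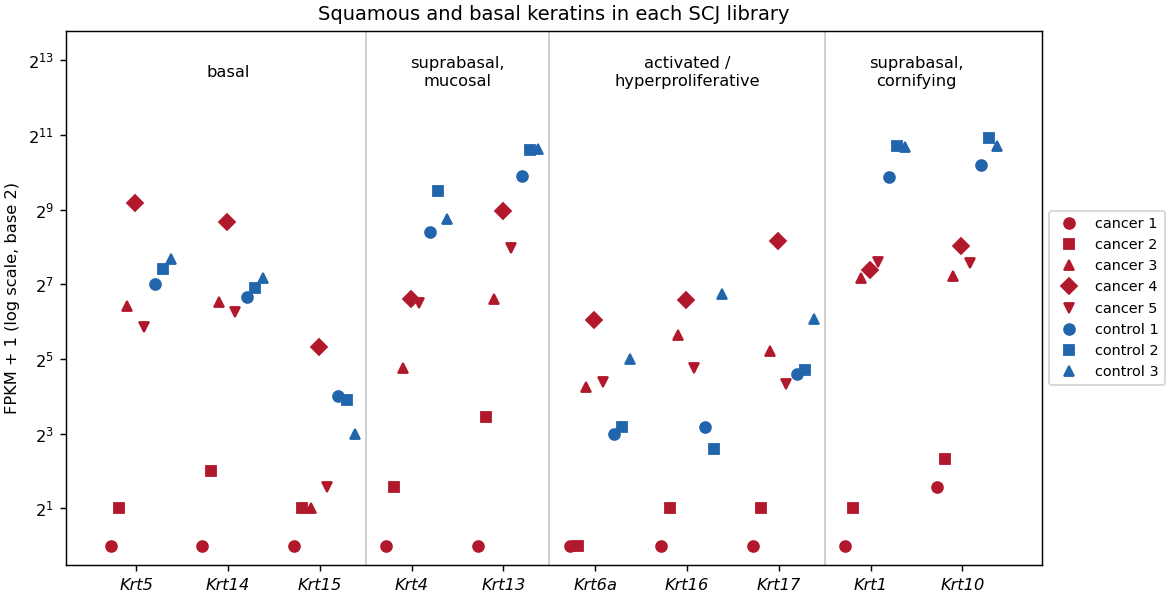
FPKM + 1 of the 10 keratins (log axis, base 2) in the 5 cancers (red) and 3 controls (blue), with 1 symbol per library. Cancers 1 and 2 lie at or near the floor for every keratin, and for Krt4, Krt13, Krt1 and Krt10 all 5 cancers lie below all 3 controls.

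The basal keratins came first in the order of the layers. Krt5, the type II keratin of the basal layer, had 0, 1, 85, 574 and 57 FPKM in cancers 1 to 5 and 128, 170 and 203 in controls 1 to 3. Cancer 4 stood above every control, cancers 3 and 5 below every control, and cancers 1 and 2 at the floor. Its log2 fold change of -2.88 (SE 2.03, limma adjusted p = 0.29) did not exceed this spread. Krt14, its type I partner, had 0, 3, 91, 403 and 75 FPKM in cancers against 100, 119 and 143 in controls. The 8 libraries stood in the same order as for Krt5, and again only cancer 4 exceeded the controls (log2 fold change of -2.23, SE 1.87, limma adjusted p = 0.37). Krt15, another keratin of basal cells, had 0, 1, 1, 39 and 2 FPKM in cancers against 15, 14 and 7 in controls. Here cancers 3 and 5 lay near cancers 1 and 2, unlike Krt5 and Krt14. The log2 fold change of Krt15 was -1.85 (SE 1.10, limma adjusted p = 0.21). Without cancer 4 it was -2.74 and past the threshold (limma adjusted p = 0.0060), so that library decided the call.

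Among the suprabasal keratins, all 5 cancers were below all 3 controls. Krt4, the type II keratin of moist squamous mucosa, had 0, 2, 26, 96 and 89 FPKM in cancers against 337, 725 and 426 in controls. It fell by 4.99 on the log2 scale (SE 1.57, limma adjusted p = 0.044, two-sided exact permutation test p = 0.036). Krt13, its partner, had 0, 10, 97, 494 and 251 FPKM in cancers against 961, 1547 and 1571 in controls. The groups did not overlap, and the highest cancer was again number 4. The log2 fold change of Krt13 was -4.97 (SE 1.93, limma adjusted p = 0.078, two-sided exact permutation test p = 0.071), which did not pass the threshold.

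Krt1, the type II keratin of cornifying suprabasal cells, had 0, 1, 143, 167 and 192 FPKM in cancers against 929, 1676 and 1629 in controls. Cancers 3, 4 and 5 were close to each other and far under every control. The log2 fold change of Krt1 was -5.78 (SE 2.0, limma adjusted p = 0.056, two-sided exact permutation test p = 0.071) and missed the threshold. Krt10, its partner, had 2, 4, 149, 261 and 188 FPKM in cancers against 1161, 1947 and 1651 in controls. It was the only member above 0 in cancer 1. Krt10 fell by 5.25 on the log2 scale (SE 1.65, limma adjusted p = 0.043, two-sided exact permutation test p = 0.071), and its log2 fold change with TPM was -4.37 (limma adjusted p = 0.045). With 5 against 3 samples the exact test cannot give a p below 0.018.

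The keratins of activated epithelium overlapped between groups. Krt6a, the type II gene of this set, had 0, 0, 18, 65 and 20 FPKM in cancers against 7, 8 and 31 in controls. Cancers 3, 4 and 5 lay above controls 1 and 2, while cancers 1 and 2 were listed at 0 (log2 fold change of -0.79, SE 1.51, limma adjusted p = 0.70). Krt16, a type I partner of Krt6a, had 0, 1, 49, 94 and 26 FPKM in cancers against 8, 5 and 105 in controls. Control 3 was the highest library of all and the other controls were among the lowest. In FPKM the 3 controls thus spread as widely as the cancers, but on the log2 scale of the fit the cancers spread more widely. The log2 fold change of Krt16 was -0.57 (SE 1.74, limma adjusted p = 0.82). Its sign turned when 1 library was left out, to 0.72 without control 3, 0.33 without cancer 1 and 0.08 without cancer 2, and it was 0.08 with TPM. Krt17, a type I keratin of wounded epithelium and skin appendages, had 0, 1, 36, 287 and 19 FPKM in cancers against 23, 25 and 66 in controls. Cancer 4 exceeded every control, and the log2 fold change was -1.38 (SE 1.76, limma adjusted p = 0.56). Other uncalled values also moved when 1 library was left out: without cancer 1 and without cancer 4, the log2 fold change was -0.44 and -2.48 for Krt17, -0.05 and -1.56 for Krt6a, -1.05 and -3.22 for Krt14 and -1.75 and -4.05 for Krt5. None of these passed the threshold.

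**Figure D2:**
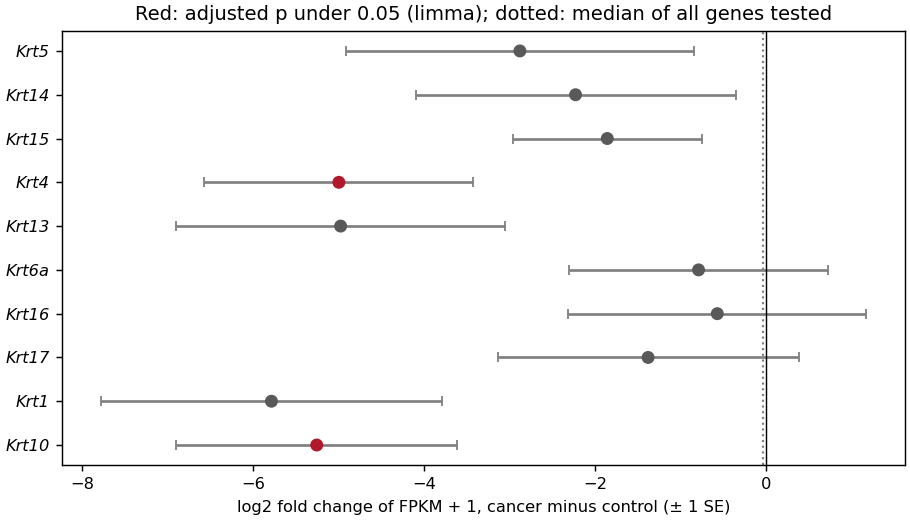
Log2 fold change of FPKM + 1 (cancer minus control) for each keratin with 1 standard error from limma. Krt4 and Krt10 (red) had an adjusted p under 0.05, and the dotted line is the median of all genes tested, -0.04.

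In the controls the levels per length fell into tiers. Krt10 (1586 ± 397 FPKM, SD, n = 3), Krt1 (1411 ± 418) and Krt13 (1360 ± 345) were highest, and their ranges overlapped. Krt4 followed at 496 ± 203 FPKM, then Krt5 at 167 ± 37.6 and Krt14 at 121 ± 21.5, whose ranges overlapped each other but not those of Krt4. Krt16 (39.3 ± 56.9), Krt17 (38 ± 24.3), Krt6a (15.3 ± 13.6) and Krt15 (12 ± 4.36) were lowest. Of these, Krt17 (23 to 66) lay above Krt15 (7 to 15) in range, the other pairs overlapped, and control 3 of Krt16 reached into the range of Krt14. In the cancers the medians ran from 149 FPKM for Krt10 and 143 for Krt1 through 97 for Krt13, 75 for Krt14 and 57 for Krt5 to 26 for Krt4 and Krt16, 19 for Krt17, 18 for Krt6a and 1 for Krt15. The ranges of all 10 overlapped there.

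Reads from near-identical genes may not have been told apart. In GENCODE M21 transcripts, 45.7% of the 50-base windows of Krt6a also occurred in transcripts of another gene, 40.2% in Krt6b. The coding sequences of Krt6a and Krt6b are identical over a run of 280 bases, whose first 60 (bases 34 to 93 of the Krt6a open reading frame) are shown because a read from them fits either gene.
Krt6a and Krt6b: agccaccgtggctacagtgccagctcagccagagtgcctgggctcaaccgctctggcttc
For Krt16 the shared part was 37.6%, mostly with Gm11597 (25.2%) and Krt14 (12.4%), and for Krt14 it was 13.9%. It was 8.52% for Krt5, 3.99% for Krt17 and 0.64% for Krt15. Krt4, Krt13, Krt1 and Krt10, the members without overlap between groups, shared no such window with any other gene. Krt6b itself had 0, 0, 21, 90 and 18 FPKM in cancers against 19, 11 and 71 in controls, with the same highest cancer and the same highest control as Krt6a.

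A share of the keratin pool within a library does not depend on the scaling between libraries. Of the summed FPKM of all 52 keratins in the table, the 10 members took 0.279% and 0.486% in cancers 1 and 2, and 35.7%, 45.5% and 31.6% in cancers 3 to 5. In controls 1 to 3 they took 31.9%, 52.0% and 51.1%. Cancers 3 to 5 thus had a squamous share within or just below the range of the controls, and cancers 1 and 2 had nearly none. The simple keratins Krt7, Krt8, Krt18, Krt19 and Krt20 held 96.9% and 97.9% of the pool in cancers 1 and 2 and between 45% and 65.1% in the other 6 libraries. The members' own sum was 2, 24, 695, 2480 and 919 FPKM in cancers against 3669, 6236 and 5832 in controls. The pool as a whole was 718, 4936, 1945, 5446 and 2909 FPKM in the cancers and 11414 to 11985 in the controls.

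The make-up of the squamous share differed between libraries. Krt5, Krt14 and Krt15 held 25.5%, 41.0% and 14.6% of the members' sum in cancers 3 to 5, and 6.62%, 4.86% and 6.05% in the controls. Krt6a, Krt16 and Krt17 held 14.8%, 18.0% and 7.07% in these cancers and 1.04%, 0.609% and 3.46% in the controls. Krt1 and Krt10 held 42.0%, 17.3% and 41.3% against 57.0%, 58.1% and 56.2%, and Krt4 and Krt13 held 17.7%, 23.8% and 37.0% against 35.4%, 36.4% and 34.2%. Each of cancers 3 to 5 had a larger basal and activated share and a smaller Krt1 and Krt10 share than any control, while Krt4 and Krt13 in cancer 5 were above the controls. In cancer 2, where these shares rest on 24 FPKM, they were 20.8% basal, 8.33% activated, 20.8% Krt1 and Krt10 and 50% Krt4 and Krt13. All of the 2 FPKM of cancer 1 were Krt10. These shares were summed with the members' levels known and are given without a test.

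**Figure D3:**
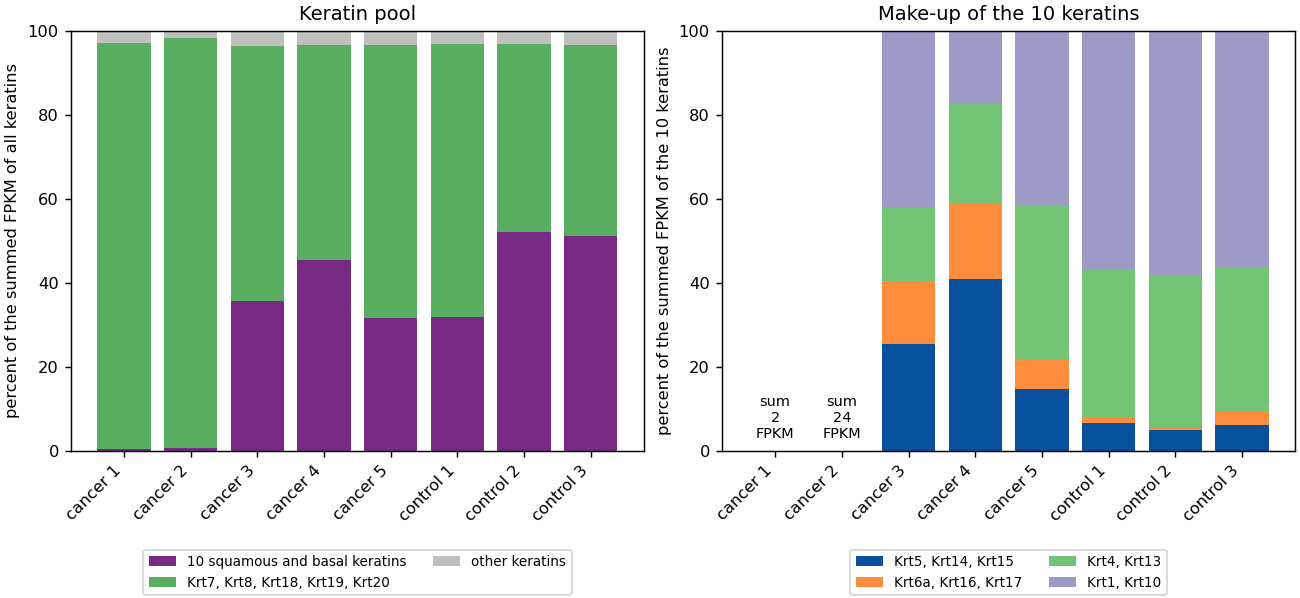
Left, percent of the summed FPKM of all 52 keratins taken by the 10 squamous and basal keratins, 5 simple keratins and the rest in each library. Right, percent of the 10 keratins' sum by type, left blank for cancers 1 and 2, whose sums were 2 and 24 FPKM; Krt5, Krt14 and Krt15 reach 41.0% in cancer 4 and at most 6.62% in the controls.

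Ratios between filament partners were compared within libraries. The log2 ratio of Krt5 to Krt14 was 0.35, 0.51 and 0.50 in controls 1 to 3 and 0, -1.0, -0.10, 0.51 and -0.39 in cancers 1 to 5. It differed by -0.65 between groups (two-sided exact permutation test p = 0.11, adjusted p = 0.61 over 6 pairs). Krt4 to Krt13 differed by -0.02 (exact p = 1.0), Krt1 to Krt10 by -0.53 (exact p = 0.29, adjusted p = 0.61), Krt5 to Krt15 by -1.02 (exact p = 0.55, adjusted p = 0.83), Krt6a to Krt16 by -0.22 (exact p = 0.71, adjusted p = 0.86) and Krt6a to Krt17 by 0.59 (exact p = 0.30, adjusted p = 0.61). These tests include cancers 1 and 2, where most of the genes are at 0 to 4 FPKM and the ratio is set largely by the added 1, so they do not show whether the ratios of partners differ.

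Ratios of suprabasal to basal keratins were formed after the levels had been seen and were not tested. The log2 ratio of Krt13 to Krt5 was 2.90, 3.18 and 2.95 in the controls and 0.19, -0.22 and 2.12 in cancers 3 to 5. That of Krt10 to Krt14 was 3.52, 4.02 and 3.52 in the controls and 0.71, -0.62 and 1.31 in cancers 3 to 5. Krt4 to Krt5 was 1.39, 2.09 and 1.07 in the controls and -1.67, -2.57 and 0.63 in these cancers. For Krt1 to Krt14 it was 3.20, 3.80 and 3.5 in the controls and 0.65, -1.27 and 1.34 in the same cancers. All of these ratios were lower in cancers 3 to 5 than in any control, and lowest in cancer 4. In cancers 1 and 2 they ran from -1.0 to 2.46 and rest on 0 to 10 FPKM per gene.

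**Figure D4:**
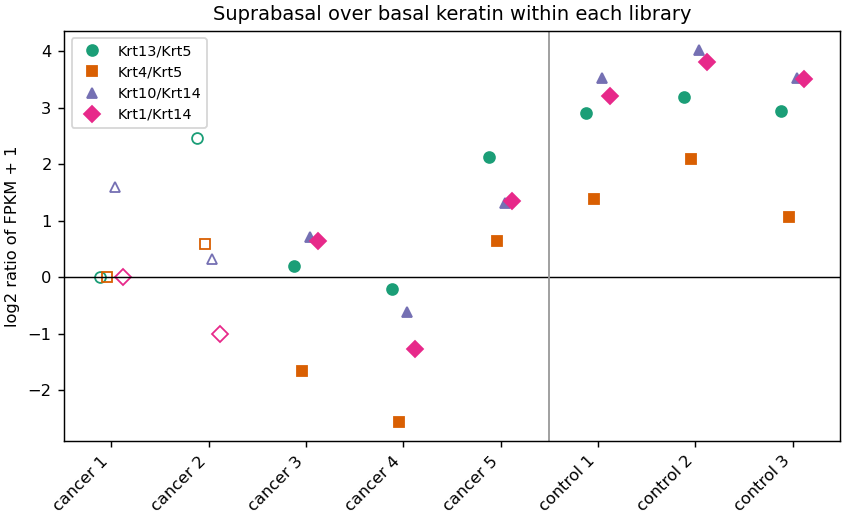
Log2 ratio of FPKM + 1 of a suprabasal to a basal keratin in each library. Open symbols mark cancers 1 and 2, where both genes are at or near 0; the controls lie between 1.07 and 4.02 and cancers 3 to 5 between -2.57 and 2.12.

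Across the 8 libraries the 45 pairs of members had Pearson correlations of log2(FPKM + 1) between 0.51 and 0.997, with a median of 0.86. The points share the groups and the scaling of the libraries, so the values are a description. The genes most like the members' mean, among 9116 with a mean FPKM of at least 5, were Lgals7 (galectin-7 of stratified epithelia, r = 0.994), Lypd3 (0.990), Klk10 (a kallikrein-related peptidase, 0.989), Cnfn (cornifelin, 0.989) and Krtdap (keratinocyte differentiation-associated protein, 0.989), over 8 libraries. Lgals7 had 0, 2, 199, 641 and 139 FPKM in cancers against 690, 813 and 999 in controls. Krtdap had 1, 4, 399, 1432 and 399 FPKM in cancers against 1842, 2555 and 1604 in controls. Neither passed the threshold (log2 fold changes of -4.55 and -4.72, standard errors 2.15 and 2.24, both with an adjusted p of 0.13 from limma).

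Other genes of squamous epithelium were read from lists, whose counts stand beside the 18.3% of all tested genes called lower and 16.2% called higher. Of 12 squamous transcription factors, 4 fell and none rose, with a median log2 fold change of -1.15 (-0.04 over all genes). Trp63, the master regulator of stratified epithelium, had 0, 0, 4, 21 and 4 FPKM in cancers against 7, 11 and 9 in controls, again highest in cancer 4 (log2 fold change -1.48, limma adjusted p = 0.27). Klf4, a factor of differentiating epithelial cells, had 15, 93, 28, 46 and 57 FPKM in cancers against 318, 209 and 252 in controls. Klf4 fell by 2.64 on the log2 scale (SE 0.53, limma adjusted p = 0.0097), and Ovol1, a repressor that acts as cells leave the basal layer, by 2.07 (SE 0.52, limma adjusted p = 0.021). Zfp750, a factor of terminal differentiation, fell by 1.51 (SE 0.48, limma adjusted p = 0.045), a call kept without cancer 4 and lost without any other library (limma adjusted p 0.066 to 0.14). With TPM, Klf4 stayed past the threshold, and Ovol1 (-1.54, limma adjusted p = 0.074) and Zfp750 (-0.77, limma adjusted p = 0.20) did not. The whole list then had 1 gene called lower and 1 higher (Pitx1).

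Desmosomes anchor keratin filaments between cells, and 10 of 13 desmosome genes fell while none rose (median log2 fold change -1.91). With TPM 5 fell and none rose. Dsc1, a desmocollin of upper squamous layers, had 0, 0, 1, 1 and 4 FPKM in cancers against 14, 28 and 32 in controls (log2 fold change of -3.74, SE 0.56, limma adjusted p = 0.0035). Dsg1b, a desmoglein of the same layers, fell by 3.09 (SE 0.60, limma adjusted p = 0.0082), and Dsc2, a more widely expressed desmocollin, had a log2 fold change of -2.56 (SE 0.59, limma adjusted p = 0.015). Dsg3, a desmoglein of the basal layer, had 0, 0, 4, 18 and 7 FPKM in cancers against 5, 9 and 12 in controls. Its log2 fold change was -1.29 (limma adjusted p = 0.34), and like Krt5 it was highest in cancer 4. Among the cancers, Dsp and Jup of this list were also highest in cancer 4, so this was not particular to genes of the basal layer.

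Hemidesmosomes tie basal keratins to the basement membrane, and 2 of 9 such genes fell, a share near the 18.3% of all genes (median log2 fold change -1.01). Plec, the plectin that links filaments to integrins, had a log2 fold change of -1.2 (SE 0.27, limma adjusted p = 0.014). Itga6, an integrin chain of these contacts, fell by 1.01 (SE 0.27, limma adjusted p = 0.026). With TPM neither was past the threshold (-0.28 and -0.07, limma adjusted p = 0.32 and 0.86), and 2 other genes of the list (Dst and Cd151) were called higher and none lower. Unlike Krt5, Itgb4 and Lamb3 of this list were highest among the cancers in cancer 2 (24 and 23 FPKM). Of 21 genes of the cornified envelope, 20 were in the table and 19 tested, and 9 fell while none rose (median log2 fold change -3.19), with 7 lower and none higher with TPM. Lor, the loricrin of the envelope, had 1, 1, 62, 47 and 131 FPKM in cancers against 605, 1123 and 921 in controls, and like Krt1 was highest among the cancers in cancer 5. It fell by 5.62 (SE 1.53, limma adjusted p = 0.027), Rptn (repetin) had a log2 fold change of -4.86 (SE 1.32, limma adjusted p = 0.027) and Spink5, a protease inhibitor of upper layers, a change of -4.35 (SE 1.12, limma adjusted p = 0.022). These counts rested on all 3 controls: leaving out any of them left 4 or 5 desmosome, 3 or 4 cornified envelope, 2 transcription factor and 0 or 1 hemidesmosome genes called, and leaving out cancer 3 left 5 desmosome, 2 transcription factor and 1 hemidesmosome genes.

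**Figure D5:**
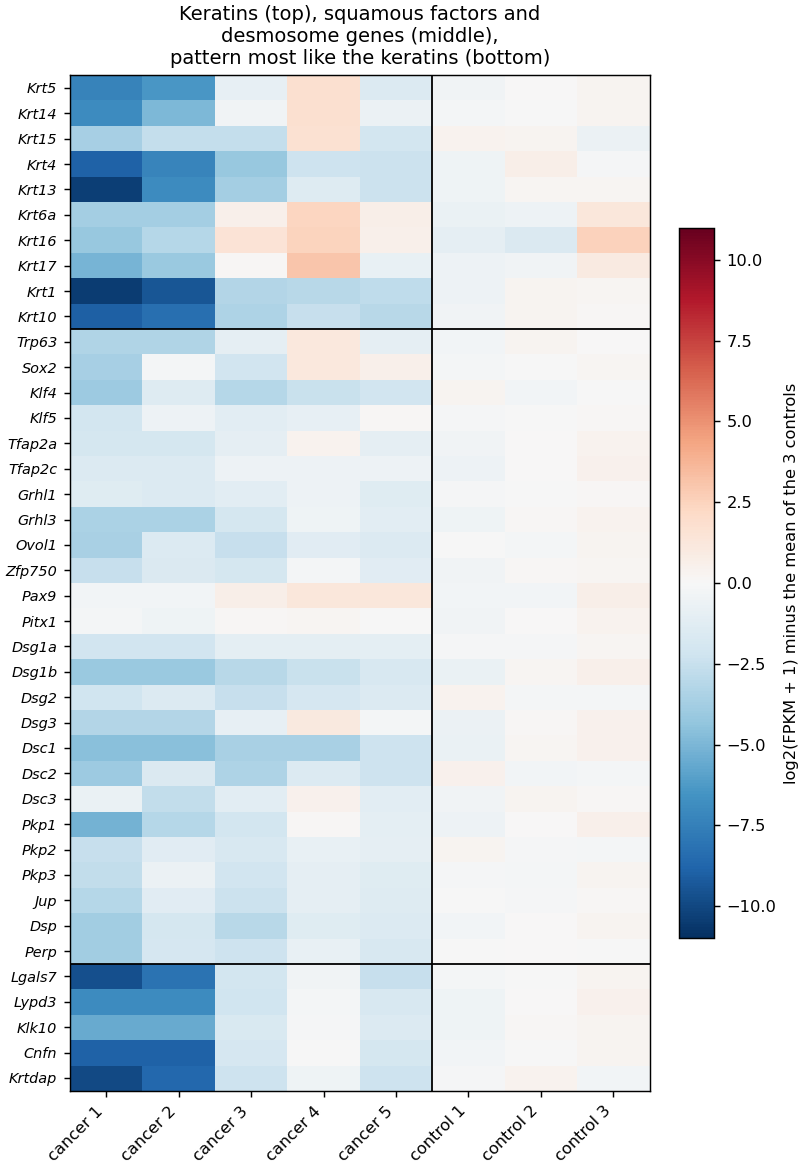
Log2(FPKM + 1) minus the mean of the 3 controls for the keratins, all listed squamous transcription factors and desmosome genes, and the 5 genes with the pattern most like the keratins. Cancers 1 and 2 are blue for all 10 keratins. Krt5, Krt14, Krt15, Krt6a, Krt16, Krt17, Trp63, Sox2 and Dsg3 are among the genes that are red in cancer 4.

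Markers of other cells were counted in the same way, beside the same 18.3% of all tested genes called lower and 16.2% called higher. The 10 gastric glandular markers summed to 694 to 78716 FPKM in the cancers and 158537 to 240752 in the controls. They include Pgc, a pepsinogen listed at 28832, 0 and 0 in the controls, and without it, a choice made after the values were seen, the sums were 691 to 74170 and 158537 to 224870. Of the 10, 7 had every cancer below every control, as did 19.8% of all tested genes. The 10 had a median log2 fold change of -4.50, and 6 were lower at an unadjusted p under 0.05 in limma (25.3% of all genes). After adjustment 1 was called (Gkn1, a stomach surface protein, log2 fold change -3.81, SE 1.11, limma adjusted p = 0.034). In cancer 1, Atp4a, Atp4b, Muc5ac, Muc6 and Gif were listed at 0, and in cancer 2, where the 10 members summed to 24 FPKM, Atp4a had 370 and Muc5ac 285 FPKM. All 6 neuroendocrine markers rose, and their sums were 7998 to 17748 FPKM in the cancers and 124 to 187 in the controls. Chgb, a granin of secretory granules, had the largest change of these (log2 fold change of 8.30, SE 0.56, limma adjusted p = 0.00036), followed by the granins Scg3 (6.98, SE 0.33, limma adjusted p = 0.00013) and Scg2 (6.46, SE 0.42, limma adjusted p = 0.00033). Of 5 general epithelial markers, 4 rose and 1 fell, with sums of 530 to 1010 and 477 to 588 FPKM. Epcam, an adhesion protein of epithelial cells, was at 314 to 592 FPKM in the cancers, cancers 1 and 2 included, and 159 to 183 in the controls. Cdh1, the cadherin of epithelial junctions and the member of this list that fell, was at 52 to 173 FPKM in the cancers and 304 to 390 in the controls (log2 fold change of -1.78, SE 0.38, limma adjusted p = 0.012). Its call was lost without control 1 (-1.67, limma adjusted p = 0.052). The claudins Cldn3 (4.14, SE 0.36, limma adjusted p = 0.00078), Cldn7 (3.77, SE 0.33, limma adjusted p = 0.00078) and Cldn4 (1.96, SE 0.50, limma adjusted p = 0.022) rose on the log2 scale.

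The 6 smooth muscle markers summed to 43 to 1692 FPKM in the cancers and 355 to 549 in the controls, with none called by limma and 0 at an unadjusted p under 0.05 (Tagln, log2 fold change -0.73, SE 0.97, adjusted p = 0.57). The 6 fibroblast markers summed to 62 to 329 and 72 to 133 FPKM, with none called by limma and 1 higher at an unadjusted p under 0.05 (Dcn, log2 fold change 0.21, SE 0.46, adjusted p = 0.74). With TPM 5 of the 6, all but Lum, were called higher (Dcn, 1.18, limma adjusted p = 0.031), and without cancer 5 the 3 collagen genes Col1a1, Col1a2 and Col3a1 were. The 6 immune markers summed to 13 to 122 and 10 to 11 FPKM, and Csf1r, a receptor of macrophages, rose (log2 fold change of 1.21, SE 0.35, limma adjusted p = 0.032). Csf1r, Gkn1 and Cldn4 were not called when control 1, 2 or 3 or cancer 3 was removed, and Gkn1 also not without cancer 5. Without a control, the log2 fold changes were 1.14 to 1.35 for Csf1r, -3.92 to -3.75 for Gkn1 and 1.94 to 2.02 for Cldn4. The part of these cells in the keratin values was not tested. Hair follicle and skin markers, of which Krt71, Krt25, Krt27 and Krt35 were listed at 0 in every library, summed to 1 to 2 FPKM in the cancers and 2 to 5 in the controls.

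Of the 10 other keratins reaching 10 FPKM, 5 fell and 1 rose, where 18.3% of all tested genes were called lower and 16.2% higher. Krt78, a type II keratin of squamous epithelia, had 0, 2, 6, 9 and 11 FPKM in cancers against 58, 115 and 83 in controls (log2 fold change of -4.12, SE 0.80, limma adjusted p = 0.0085). Krt80 had 0, 3, 1, 2 and 8 against 15, 27 and 29 FPKM (log2 fold change of -3.02, SE 0.65, limma adjusted p = 0.012), and Krt79 had 0, 4, 0, 1 and 1 against 10, 7 and 10 FPKM (log2 fold change of -2.44, SE 0.52, limma adjusted p = 0.012). Krt23, a type I keratin, had 19, 67, 34, 73 and 51 against 242, 196 and 169 FPKM (log2 fold change of -2.16, SE 0.43, limma adjusted p = 0.0092). The calls of Krt79 without control 1 and of Krt80 without control 2 or 3 were just lost (limma adjusted p = 0.051, 0.050 and 0.051). Of the simple keratins, Krt7 rose (log2 fold change of 3.62, SE 0.23, limma adjusted p = 0.00033) and Krt8 fell (-2.02, SE 0.65, limma adjusted p = 0.045), though not past the threshold with TPM (-1.05, limma adjusted p = 0.11). The Krt8 call was also lost without cancer 1, 3 or 5 (limma adjusted p = 0.061, 0.099 and 0.081) and without control 1, 2 or 3 (limma adjusted p = 0.14, 0.11 and 0.11). Krt18 had 139 to 643 against 558 to 896 FPKM, Krt19 13 to 1838 against 2401 to 3178 and Krt20 0 to 175 against 98 to 275, and none of these passed in limma.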

How the data were processed

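Poly(A) RNA of 5 SCJ cancers and 3 control SCJ tissues was sequenced from directional libraries. The authors trimmed reads (cutadapt 1.8), quantified annotated UCSC mm10 genes (cuffquant) and normalized them (cuffnorm 2.2.1). TopHat2 2.0.13 also appears in the submitters' processing notes. The deposited FPKM had been rounded by the authors and 100% were whole, so they are treated as a score, being neither read counts nor exact FPKM. The cuffnorm options and the depth are not given in the sources used here.

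Log2(FPKM + 1) of the 14357 genes that reached 1 FPKM in 3 or more libraries was fitted with limma 3.58.1 (eBayes with trend, R 4.3.3), with Benjamini-Hochberg adjustment over all of them at 0.05. The fit was tested on simulated data. Exact permutation tests were two-sided over the 56 splits, and ratios were adjusted over 6 pairs. Of 108 entries in 12 lists, 107 were in the table, with Adgre1 found under an older symbol. The text names all members, up to 3 called genes per list by size of change (otherwise the most abundant), the 5 genes most like the members' mean and other keratins reaching 10 FPKM. Trp63, Sox2, Dsg3, Dsp, Jup, Itgb4, Lamb3, Epcam, Cdh1, Pgc, Pitx1, Dst, Cd151, Lum, Col1a1, Col1a2, Col3a1, Atp4a, Atp4b, Muc5ac, Muc6, Gif, Krt71, Krt25, Krt27 and Krt35 were named after their values were seen. Of the hair follicle list, Krt75 and Gata3 were called lower and Lhx2 higher, at 0 to 2 FPKM. The members and lists were chosen with earlier results of these data known. Alternatives were a pseudocount of 0.1, no filter, a mean FPKM of at least 5, TPM, quantile normalization, array weights, eBayes without a trend, the replicate block and the removal of each sample.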

Additional observations from a re-analysis of the deposited data

How the results depend on the processing

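Unknown depth and rounding limit all values near 0, which include the 10 members in cancers 1 and 2 (0 to 10 FPKM). The number of members called was 2, and it was 0 with a pseudocount of 0.1, with quantile normalization and with the replicate block, 1 with TPM, 5 with array weights and between 0 and 3 on leaving out a sample. The count of all genes called was 4948 (2326 higher, 2622 lower). It was 7704 with TPM (7176 higher, 528 lower), 8148 with array weights (3909 higher, 4239 lower), 1534 with the replicate block (982 higher, 552 lower) and between 2548 and 5232 on leaving out a sample (1362 to 2459 higher, 1186 to 2773 lower), with 1244 higher at a mean FPKM of at least 5. Replicate numbers were not taken as pairs: the deviations from the group means of a cancer and a control with a shared number had correlations of -0.02, -0.19 and -0.10. In the replicate block, cancers 4 and 5 have no control of the same number and are fitted by terms of their own. Its differences therefore rest on cancers 1 to 3 against controls 1 to 3. Causes of the other shifts in these counts were not tested.

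Krt4 was no longer past the threshold with a pseudocount of 0.1 (log2 fold change -5.77), TPM (-4.33), quantile normalization (-4.53) and the replicate block (-6.77), and neither was Krt10 with a pseudocount of 0.1 (-5.42), quantile normalization (-4.84) and the replicate block (-6.89). On leaving out a sample, Krt4 ran from -5.67 to -4.02 (adjusted p 0.033 to 0.13 from limma) and Krt10 from -5.93 to -4.31 (adjusted p 0.034 to 0.12 from limma). With array weights Krt15 (-2.36), Krt13 (-4.84) and Krt1 (-5.2) passed, and Krt1 (-5.78) also with a mean FPKM of at least 5. Krt15 ran from -2.74 to -1.41 on leaving out a sample. Krt16 reversed to 0.0802 with TPM and 0.90 with array weights and ran from -1.36 to 0.72. The log2 ratio of Krt4 to Krt13 ran from -0.40 to 0.19 and that of Krt6a to Krt16 from -0.86 to 0.29. Trp53 reversed to 0.86 with TPM, past the threshold (limma adjusted p = 0.020), and to 0.13 with quantile normalization, and ran from -0.29 to 0.0266. Rb1 was no longer past the threshold with TPM (-0.05, limma adjusted p = 0.84). Tagln reversed to 0.23 with TPM, and Dcn to -0.000161 with array weights. Dcn passed with TPM (1.18) and ran from -0.0735 to 0.47.

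Lists were counted by genes called. With TPM there were 1 simple keratin (main count 2), 2 squamous transcription factors (4, all lower, against 1 higher and 1 lower), 2 hemidesmosome genes (2, both lower, against both higher), 5 desmosome (10), 5 fibroblast (0) and 3 immune genes (1). With quantile normalization there were 1 hemidesmosome (2), 0 glandular (1), 1 fibroblast and 0 immune genes. Array weights gave 4 simple keratins, 8 squamous transcription factors, 5 hemidesmosome, 15 cornified envelope (9), 7 glandular, 1 fibroblast and 4 immune genes. The replicate block gave 1 simple keratin, 4 desmosome, 0 hemidesmosome, 0 glandular, 0 immune and 2 general epithelial genes (5). A pseudocount of 0.1 gave 2 squamous transcription factors, and a mean FPKM of at least 5 gave 4 glandular, 1 fibroblast and 0 hair follicle genes (3), of which no filter gave 1. On leaving out a sample, the counts were 1 to 2 simple keratins, 2 to 6 squamous transcription factors, 4 to 10 desmosome, 0 to 3 hemidesmosome, 3 to 11 cornified envelope, 0 to 4 glandular, 0 to 3 fibroblast, 0 to 3 immune, 3 to 5 general epithelial and 1 to 3 hair follicle genes.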
